A study of Mus musculus with 35 samples.

Results

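The defensin genes were followed across 12 groups of sorted medullary thymic epithelial cells (mTECs) of the mouse. They were taken as all genes whose annotated symbol starts with Defa (alpha-defensins) or Defb (beta-defensins). The array held probes for 47 of them among 21903 named genes, 7 alpha- and 40 beta-defensins. The reference annotation lists 83, of which 40 are alpha- and 43 beta-defensins. A signal was detected for 36 of the 47 on at least 2 arrays of some group, and these 36 (6 alpha, 30 beta) entered the tests among 18090 genes. The other 11 were Defa-ps1, Defb7, Defb9, Defb10, Defb18, Defb21, Defb35, Defb39, Defb40, Defb41 and Defb44-ps. A gene that passed through 1 bright group only had to differ between groups, so counts over the 36 describe them and are not evidence about the family.

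Defensins are small, cysteine-rich, positively charged peptides that damage microbial membranes. In the mouse, alpha-defensins, also called cryptdins, are secreted by Paneth cells at the base of the intestinal crypts, whereas beta-defensins come from the epithelia of skin, mouth, airway, kidney and, in great number, the epididymis, where some coat the sperm. Medullary epithelial cells of the thymus transcribe genes of this kind, which are otherwise confined to single tissues, and show their products to developing T cells; the regulators Aire and Fezf2 are known for this role.

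Total RNA of sorted mTECs was hybridised to Illumina bead arrays, which read each gene by short probes attached to beads. In each of 6 sorts, cells positive for an antigen were set against cells negative for it, to ask which other genes are transcribed together with that antigen. Pdpn, Gp2, Cea1 and Tspan8 were stained with antibodies, and Gad1 and Ins2 were followed in reporter mice. Neither the kind of reporter, the strain and age of the mice nor the sorting gates are stated in the labels, and no treatment is named for any group. Each group had 3 arrays, except Gp2-positive cells with 2 and Ins2-negative cells with 2 usable ones. Arrays of a group carry the label biological replicate, but separate animals are not named, so p-values measure the spread between these samples, which may be technical. With so few arrays in a group, precision is limited by their number.

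Between 47.1% and 60.8% of probes were detected on an array, and replicates correlated at 0.973 to 0.993 (Pearson). The gene of the sorted antigen was higher in the positive cells of each sort, from 1.58-fold for Gad1 to 27.8-fold for Tspan8, with Ceacam1 taken for Cea1. All 10 mTEC markers tested (Epcam, Cd80, Aire and others) were detected in the negative cells of the Gp2 and Tspan8 sorts and in Tspan8-positive cells. In the other groups 9 of 10 were detected, and the missing 1 was Epcam, found on at most 1 array of such a group. Their summed linear signal was 19682 to 28372 on the Gp2-positive arrays and 32981 to 52730 on all others. Levels below are normalized log2 signals, in which a step of 1 is a doubling. A difference is the mean of the positive minus the mean of the negative cells. A gene was called when its limma p-value, adjusted over all genes of the sort by the method of Benjamini and Hochberg, was under 0.05. Levels of different genes were not compared, since each gene has its own probe. In bulk samples fewer cells transcribing a gene and less RNA per cell cannot be told apart.

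The gene families lie in clusters. All alpha-defensins on the array are on chromosome 8, in 1 run that is flanked on both sides by beta-defensins, and further beta-defensin clusters on the array lie on chromosomes 2 and 14 and, with 3 genes that were not detected, on chromosome 1. The stretch of 150 bases before the annotated transcription start is shown for 7 members, which the results turn on: Defa20 and Defa21 for alpha-defensins called in the same direction in 3 sorts, Defa31 for an alpha-defensin called in none, Defb6 and Defb8 for members of 1 cluster that moved in opposite directions in 1 sort, and Defb42 and Defb30 for a neighbouring pair that was lower in most sorts. Sequences are from RefSeq, build GRCm38.p6, written 5′ to 3′ on the gene's own strand. Capitals mark the motif TATANA on either strand, a form of the TATA box.
Defa20, chr8:21509108-21509257, plus strand: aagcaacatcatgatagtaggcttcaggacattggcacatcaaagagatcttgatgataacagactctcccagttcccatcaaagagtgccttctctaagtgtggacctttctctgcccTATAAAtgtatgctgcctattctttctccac
Defa21, chr8:21025395-21025544, plus strand: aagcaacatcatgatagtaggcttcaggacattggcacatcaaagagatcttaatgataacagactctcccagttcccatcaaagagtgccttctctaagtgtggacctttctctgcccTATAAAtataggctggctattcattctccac
Defa31, chr8:21191423-21191572, plus strand: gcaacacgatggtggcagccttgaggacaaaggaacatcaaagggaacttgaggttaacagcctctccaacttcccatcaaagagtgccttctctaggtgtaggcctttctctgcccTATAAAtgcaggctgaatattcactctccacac
Defb6, chr8:19225328-19225477, plus strand: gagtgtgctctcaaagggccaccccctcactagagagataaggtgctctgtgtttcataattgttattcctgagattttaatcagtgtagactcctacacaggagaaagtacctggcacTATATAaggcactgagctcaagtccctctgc
Defb8, chr8:19447607-19447756, minus strand: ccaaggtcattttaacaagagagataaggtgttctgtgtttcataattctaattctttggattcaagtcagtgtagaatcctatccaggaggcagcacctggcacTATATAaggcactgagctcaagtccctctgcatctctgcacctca
Defb42, chr14:63046841-63046990, plus strand: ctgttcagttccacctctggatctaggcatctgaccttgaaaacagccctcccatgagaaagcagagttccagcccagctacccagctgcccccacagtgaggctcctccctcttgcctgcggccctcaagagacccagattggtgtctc
Defb30, chr14:63037847-63037996, minus strand: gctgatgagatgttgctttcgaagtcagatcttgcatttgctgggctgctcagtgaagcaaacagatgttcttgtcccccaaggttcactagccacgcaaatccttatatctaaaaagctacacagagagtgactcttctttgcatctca
The sequences of Defa20 and Defa21 were identical at 145 of 150 aligned positions (96.7%), those of Defa20 and Defa31 at 80.3%, and those of Defb6 and Defb8 at 68.9%. Between Defb42 and Defb30 the identity was 47.1%, and between Defa20 and Defb6 it was 43.1%. Starts were listed for 45 defensin genes, 23 of them tested here, and Defb21 was listed with more than 1. TATANA was present in 15 of 16 listed alpha-defensin starts and in 7 of 30 beta-defensin starts, against 13.3% of all 32851 starts listed. The narrower TATAAA, contained in TATANA, was found in the same number of alpha-defensin starts, 15 of 16, in 3 of 30 beta-defensin starts and in 7.57% of all starts. A match describes the letters of this window and is not a mapped site. Because alpha-defensin genes are close copies, a probe named for 1 of them may bind transcripts of others, and the values given for an alpha-defensin may include its relatives.

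Defensin transcripts were detected most widely in Tspan8-negative and Gad1-positive cells and least in Gp2-positive cells. Of the 47 genes, 31 (66.0%) were detected on at least 2 arrays of Tspan8-negative cells, 29 (61.7%) in Gad1-positive cells and 28 (59.6%) each in Pdpn-negative and Gp2-negative cells. Cea1-negative cells had 26, Ins2-negative cells 25, Pdpn-positive and Cea1-positive cells 23 each, and Ins2-positive cells 22. Gad1-negative cells were the 1 negative group below its positive partner, with 21 (44.7%). Tspan8-positive cells had 17 (36.2%) and Gp2-positive cells 6 (12.8%). Over all named genes, the same rule detected 53.2% in Gp2-positive cells and 62.3% to 70.1% in the other groups. Gp2-positive and Ins2-negative cells had to pass on both of their 2 arrays, a harder test than 2 of 3.

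Among alpha-defensins, 5 of 7 were detected in 8 of the 12 groups, 3 in Gad1-negative and Tspan8-positive cells, 6 in Tspan8-negative cells and 1, Defa20, in Gp2-positive cells. Beta-defensins ranged from 5 of 40 in Gp2-positive to 25 of 40 in Tspan8-negative cells. The 5 defensins detected in all 12 groups were Defa20, Defb6, Defb14, Defb19 and Defb42. Where a stricter rule asked for detection on every array, the number in Tspan8-positive cells went from 17 to 11, a change of more than 1.5 times.

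**Figure D1:**
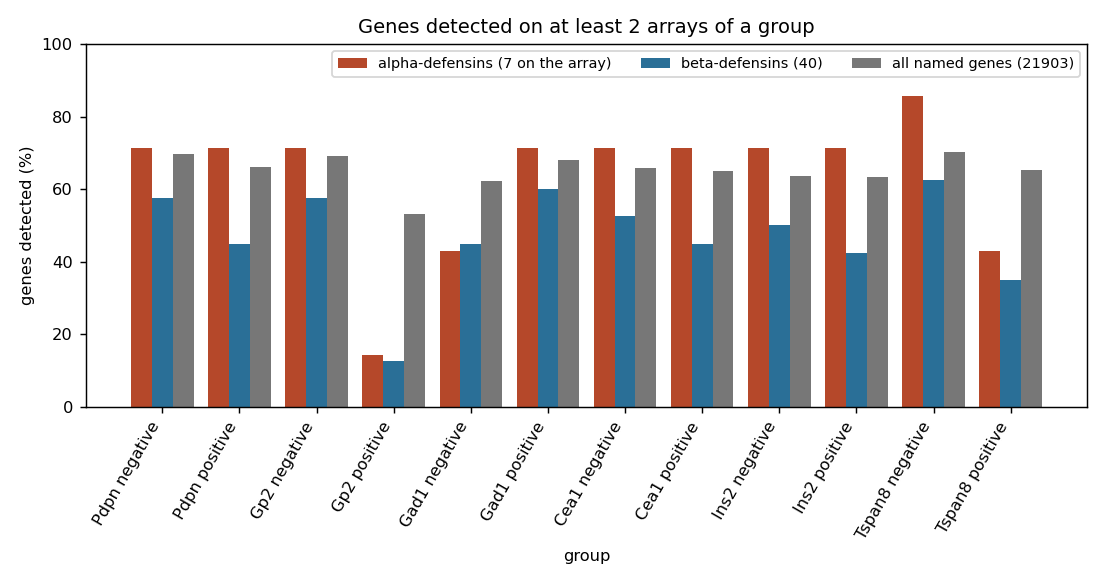
Percentage of genes detected on at least 2 arrays of each of the 12 groups (horizontal axis), for the 7 alpha-defensins, the 40 beta-defensins and all 21903 named genes on the array. Gp2-positive cells show the lowest bars, with 1 alpha- and 5 beta-defensins detected.

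The direction of the defensins depended on the sort. In the Gad1 sort 19 of the 36 rose and 3 fell, where 19.2% of all tested genes rose and 19.2% fell. In the Gp2 sort 21 fell (21% of all genes) and 1 rose (18%). In the Tspan8 sort 20 fell (23.9% of all genes) and 3 rose (19.1%). In the Pdpn sort 16 fell (19.1% of all genes) and 0 rose (18.2%). Few were called in the other sorts: 2 rose (13.4% of all genes) and 4 fell (15.6%) with Cea1, and 3 rose (16.8%) and 5 fell (17.7%) with Ins2. Scaling arrays by their medians instead of their quantiles turned the Ins2 counts into 0 and 9, the authors' own normalized values turned them into 2 and 6, and under median scaling the median of all genes itself moved to -0.25 in the Ins2 sort and -0.23 in the Gp2 sort.

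The median difference of the 36 defensins was 0.87 in the Gad1 sort, -0.79 with Gp2, -0.71 with Tspan8, -0.53 with Pdpn, -0.11 with Cea1 and -0.07 with Ins2, whereas the median of all genes lay between -0.04 and 0.00 in each sort. For members undetected in the lower group, a bound that still lay in the direction of the fitted difference was also set in its place. This held for 16 members in the Gp2 sort and 8 in the Tspan8 sort. The medians were then 0.82 with Gad1, -0.64 with Gp2 and -0.68 with Tspan8. Members without such a bound, such as Defb2 in the Gp2 sort (-0.26), kept their fitted differences. In all, 26 members were called in at least 1 sort, 20 of them in both directions and 6 only lower. The remaining 10 were called in no sort: Defa31, Defb11, Defb12, Defb13, Defb15, Defb26, Defb34, Defb38, Defb43 and Defb47. The 6 differences of a gene were unequal by limma's F test (adjusted over all genes) for 24 of the 36 members and for 61.5% of all genes.

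**Figure D2:**
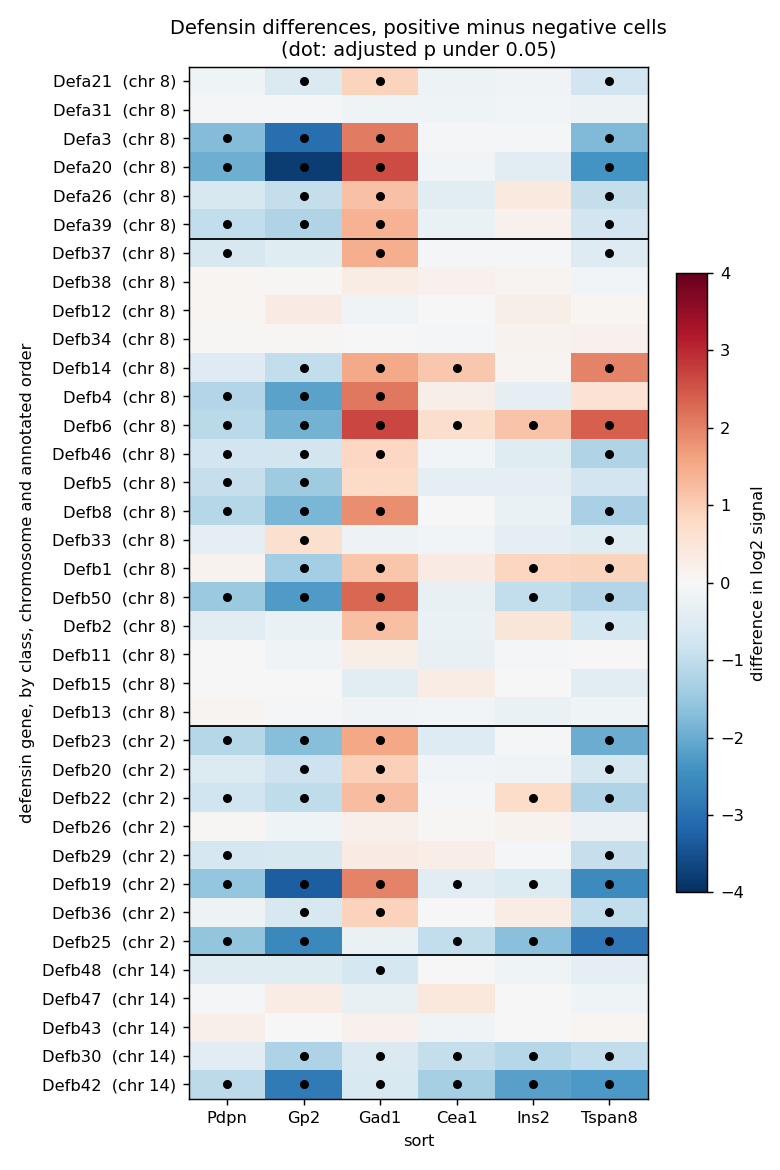
Difference in log2 signal, positive minus negative cells, for the 36 tested defensins (rows, by class, chromosome and annotated order) in the 6 sorts (columns). Red is higher and blue lower in positive cells, and a dot marks an adjusted p under 0.05; the Gad1 column is mostly red, and the Pdpn, Gp2 and Tspan8 columns mostly blue.

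Alpha-defensins moved together. All 5 that were called, Defa3, Defa20, Defa21, Defa26 and Defa39, rose in the Gad1 sort and fell in both the Gp2 and the Tspan8 sorts. In the Pdpn sort 3 fell (Defa3, Defa20 and Defa39), and none of the 6 was called in the Cea1 or Ins2 sort, where unadjusted and adjusted p-values both stayed above the threshold. The sixth, Defa31, was detected in 1 group only and its differences ran from -0.21 to -0.04. The median difference of the alpha-defensins was 1.29 in the Gad1 sort, -1.08 with Gp2, -0.86 with Tspan8 and -0.81 with Pdpn. For the 30 beta-defensins the corresponding medians were 0.54, -0.70, -0.50 and -0.49. With undetected members at their bounds, where these lay in the direction of the difference, the Gp2 medians were -0.85 for alpha- and -0.56 for beta-defensins. The filter on detection bears on this contrast: without it, over all members on the array, the beta medians came to 0.18 with Gad1, -0.21 with Gp2, -0.19 with Tspan8 and -0.14 with Pdpn, while the alpha medians with Gad1 and Gp2 were 1.18 and -0.94. No test of alpha against beta was made, since the members of a class are not replicates.

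**Figure D3:**
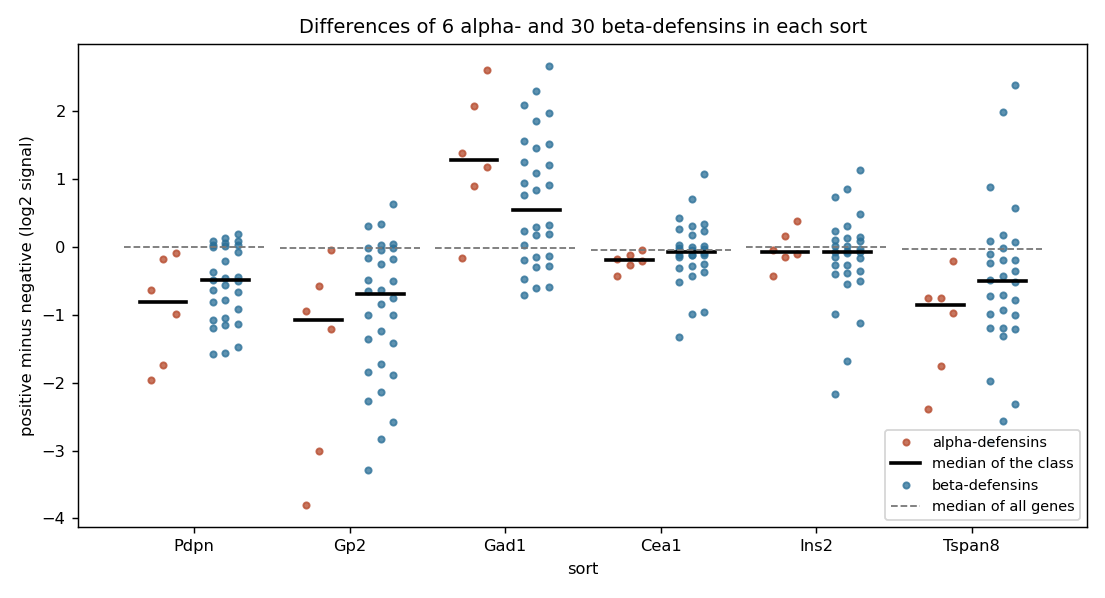
Difference of each tested defensin, positive minus negative cells in log2 signal (vertical axis), in the 6 sorts, with the 6 alpha-defensins in red and the 30 beta-defensins in blue. Black bars are class medians and dashed lines the median of all genes; the alpha medians are 1.29 in the Gad1 sort and -1.08 in the Gp2 sort, while beta-defensins reach both above and below 0 in the Tspan8 sort.

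Defa20, a cryptdin, gave the largest single difference of any member. It read 4.56 and 5.08 on the Gp2-positive arrays and 8.38, 8.70 and 8.78 on the Gp2-negative ones. The groups were far apart, by -3.80 (SE 0.23) or 13.9-fold (limma, adjusted p = 2.88e-15). On the Gad1-positive arrays it read 10.09, 10.08 and 10.20, and on the Gad1-negative ones 7.06, 7.98 and 7.53. Every Gad1-positive array was above every negative one, and the difference was 2.61 (SE 0.21), a 6.08-fold rise (limma, adjusted p = 2.49e-12). Tspan8-positive cells gave 6.83, 6.78 and 6.56 against 9.16, 8.89 and 9.27 in negative cells, a 5.22-fold fall without overlap (limma, adjusted p = 7.61e-12). It also fell 3.91-fold in the Pdpn sort, with 8.00, 7.04 and 7.04 against 9.48, 9.11 and 9.40. With Cea1 the arrays overlapped (8.74, 8.74 and 8.56 against 8.91, 8.87 and 8.60), and the 95% interval of the difference was -0.53 to 0.30. With Ins2 the difference was -0.43, not called (limma, adjusted p = 0.152).

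Across groups Defa20 was highest in Gad1-positive cells (10.13 ± 0.07, SD, n = 3), followed by Pdpn-negative (9.33 ± 0.19) and Tspan8-negative cells (9.11 ± 0.19), and lowest in Gp2-positive cells (4.82 ± 0.37, n = 2). The arrays of Pdpn-negative and Tspan8-negative cells overlapped, as did those of Cea1-negative (8.79 ± 0.17) and Cea1-positive cells (8.68 ± 0.11). Groups of different sorts also differ in antibody or mice, and only differences within a sort were tested. Of the other 2 probes named for Defa20, 1 fell by 2.08, 2.53 and 2.34 in the Pdpn, Gp2 and Tspan8 sorts and rose by 2.57 in the Gad1 sort, all called. The other was called in the Gad1 (0.82) and Tspan8 (-0.89) sorts and not with Pdpn (-0.46) or Gp2 (-0.21).

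Defa3, another cryptdin, was called in the same 4 sorts and directions. Its signals were 8.59, 8.45 and 8.75 in Gad1-positive and 6.97, 6.59 and 6.01 in Gad1-negative cells, 4.21-fold higher. In the Gp2 sort they were 4.88 and 4.34 against 7.31, 7.71 and 7.83, an 8.03-fold fall to a level detected on only 1 of the 2 positive arrays. The groups did not overlap in either sort, nor in the Tspan8 sort (6.30, 6.26 and 5.79 against 7.86, 7.76 and 8.00, 3.39-fold lower) or the Pdpn sort (6.92, 6.51 and 6.04 against 8.29, 8.09 and 8.30, 3.33-fold lower). The limma adjusted p-values of these 4 differences lay between 3.35e-12 and 6.35e-08. A second probe of Defa3 was called the same way in the 4 sorts, with differences from -1.36 to 1.16. In the Cea1 and Ins2 sorts the difference was -0.04 each, with 95% intervals from -0.49 to 0.40 and from -0.53 to 0.46.

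Of the other alpha-defensins, Defa39 rose by 1.39 with Gad1 and fell by 0.99 and 0.76 with Pdpn and Tspan8. Defa26 rose by 1.18 with Gad1 and fell by 0.96 with Tspan8. Defa21, whose upstream sequence is nearly that of Defa20, was not detected on any Gad1-negative array and was at least 1.75-fold higher in Gad1-positive cells. On the Gp2-positive arrays Defa21, Defa26 and Defa39 were all undetected, so their falls there are bounds of at least 1.36-fold, 1.69-fold and 1.91-fold.

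Not all genes known from Paneth cells behaved in this way. Of the 18 on a list of such genes, 14 were tested. In the Gad1 sort 8 rose (19.2% of all genes) and 1 fell (19.2%). In the Tspan8 sort, where the alpha-defensins fell, 9 rose (19.1%) and 1 fell (23.9%). With Gp2 6 rose (18%) and 5 fell (21%), and with Pdpn 4 rose (18.2%) and 5 fell (19.1%). The counts were 10 and 0 with Cea1 (13.4% and 15.6% of all genes) and 7 and 2 with Ins2 (16.8% and 17.7%). Ang4, an antimicrobial ribonuclease of Paneth cells, was the 1 that fell with Tspan8 (by 1.69) and it also fell by 4.15 with Gp2 and by 2.55 with Pdpn. Mmp7, the matrix metalloprotease that activates mouse alpha-defensin precursors, rose by 2.15 with Tspan8 and by 1.21 with Gp2. Reg3g, a secreted lectin active against bacteria, rose by 2.68 with Tspan8, and Lyz1, Paneth cell lysozyme, by 0.31.

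The beta-defensins split into several patterns. Defb19 on chromosome 2, described in the testis of the mouse, moved like the alpha-defensins and was called in all 6 sorts. It read 10.62, 10.90 and 10.71 in Gad1-positive against 8.73, 8.96 and 8.60 in Gad1-negative cells, a 3.94-fold rise. In the other direction it read 6.08 and 6.95 in Gp2-positive against 9.60, 9.91 and 9.90 in Gp2-negative cells, 9.79-fold lower. Tspan8-positive cells gave 7.81, 7.51 and 7.42 against 10.20, 9.86 and 10.37, 5.90-fold lower, and Pdpn-positive cells 8.59, 8.44 and 8.18 against 9.98, 9.93 and 9.97, 2.95-fold lower. None of these groups overlapped, and the limma adjusted p-values of the 4 lay between 2.50e-16 and 8.95e-10. The falls in the Cea1 sort (-0.42, adjusted p = 0.0449, limma) and the Ins2 sort (-0.54, adjusted p = 0.0167, limma) were small. That of Cea1 was lost when any of 5 of the 6 Cea1 arrays was left out, with array weights (adjusted p = 0.104) and without the detection filter (adjusted p = 0.0555), and that of Ins2 when Ins2-negative replicate 1 was left out (adjusted p = 0.150).

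Its neighbours on chromosome 2 mostly went the same way. Of the 8 beta-defensins tested there, 5 rose in the Gad1 sort (19.2% of all genes) and 0 fell (19.2%). In the Tspan8 sort 7 fell (23.9% of all genes), in the Gp2 sort 6 (21%) and in the Pdpn sort 5 (19.1%). Defb23 rose by 1.56 with Gad1, fell by 1.97 and 1.14 with Tspan8 and Pdpn, and was undetected and at least 2.81-fold lower in Gp2-positive cells. Defb20 rose by 0.94 with Gad1 and fell by 0.72 with Tspan8. Defb36 rose by 0.92 with Gad1 and was undetected and at least 1.82-fold lower in Tspan8-positive cells. A second probe of Defb36 was called in the Gad1 sort (0.65) and not with Tspan8 (-0.22) or Gp2 (0.16, the opposite sign). Defb29, also of this cluster, was called lower with Pdpn and Tspan8, but its second probe was called in no sort (-0.16 and -0.30 in these 2).

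Defb22, a beta-defensin that coats mouse sperm, belongs to the same cluster. It read 6.10, 6.71 and 6.02 in Gad1-positive against 5.08, 5.17 and 4.83 in Gad1-negative cells, 2.38-fold higher (limma, adjusted p = 0.000197). In the Tspan8 sort it read 4.11, 4.20 and 4.71 against 5.51, 5.23 and 5.85, 2.28-fold lower, and in the Pdpn sort 4.62, 4.41 and 5.15 against 5.47, 5.52 and 5.60, 1.74-fold lower, the latter lost without Pdpn-positive replicate 2 (adjusted p = 0.0898). It was undetected on both Gp2-positive arrays and at least 1.58-fold lower there. In the Ins2 sort it was called 1.66-fold higher (limma, adjusted p = 0.0489) although the arrays overlapped (4.79, 5.60 and 6.11 against 4.84 and 4.69). This call was lost under 12 of the alternatives, with adjusted p-values from 0.0564 to 0.303. In the Cea1 sort the interval of the difference was -0.58 to 0.48. A second probe of Defb22 was called in the Gad1 (1.06), Tspan8 (-0.85) and Ins2 (0.58) sorts and not with Pdpn (-0.29) or Gp2 (-0.31).

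Other genes with this pattern lie on chromosome 8. Defb50 read 7.32, 7.75 and 7.50 in Gad1-positive against 4.79, 5.59 and 5.28 in Gad1-negative cells, 4.94-fold higher. It was undetected in Gp2-positive cells (4.12 and 4.38 against 6.54, 6.50 and 6.51) and at least 4.23-fold lower there. It fell 2.77-fold with Pdpn (5.59, 4.24 and 4.81 against 6.44, 6.50 and 6.11), 2.28-fold with Tspan8 (5.02, 4.83 and 4.31 against 6.04, 5.58 and 6.09) and 1.98-fold with Ins2 (5.35, 5.07 and 5.01 against 6.31 and 5.95). None of these groups overlapped, and the limma adjusted p was at most 0.00881. The Ins2 call was lost without Ins2-negative replicate 1 (adjusted p = 0.119). With Cea1 the arrays overlapped and the difference was -0.31. Defb8 rose by 1.86 with Gad1, fell by 1.31 and 1.13 with Tspan8 and Pdpn, and was undetected and at least 3.33-fold lower in Gp2-positive cells. A second probe of Defb8 was called in the Gad1 (0.98), Pdpn (-1.06) and Gp2 (-1.35) sorts and not with Tspan8 (-0.57; limma, adjusted p = 0.0670). Defb37 and Defb46 rose with Gad1 (1.46 and 0.84) and fell with Pdpn (-0.64 and -0.78). In Tspan8-positive cells both were undetected, at least 1.42-fold and 2.04-fold lower.

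**Figure D4:**
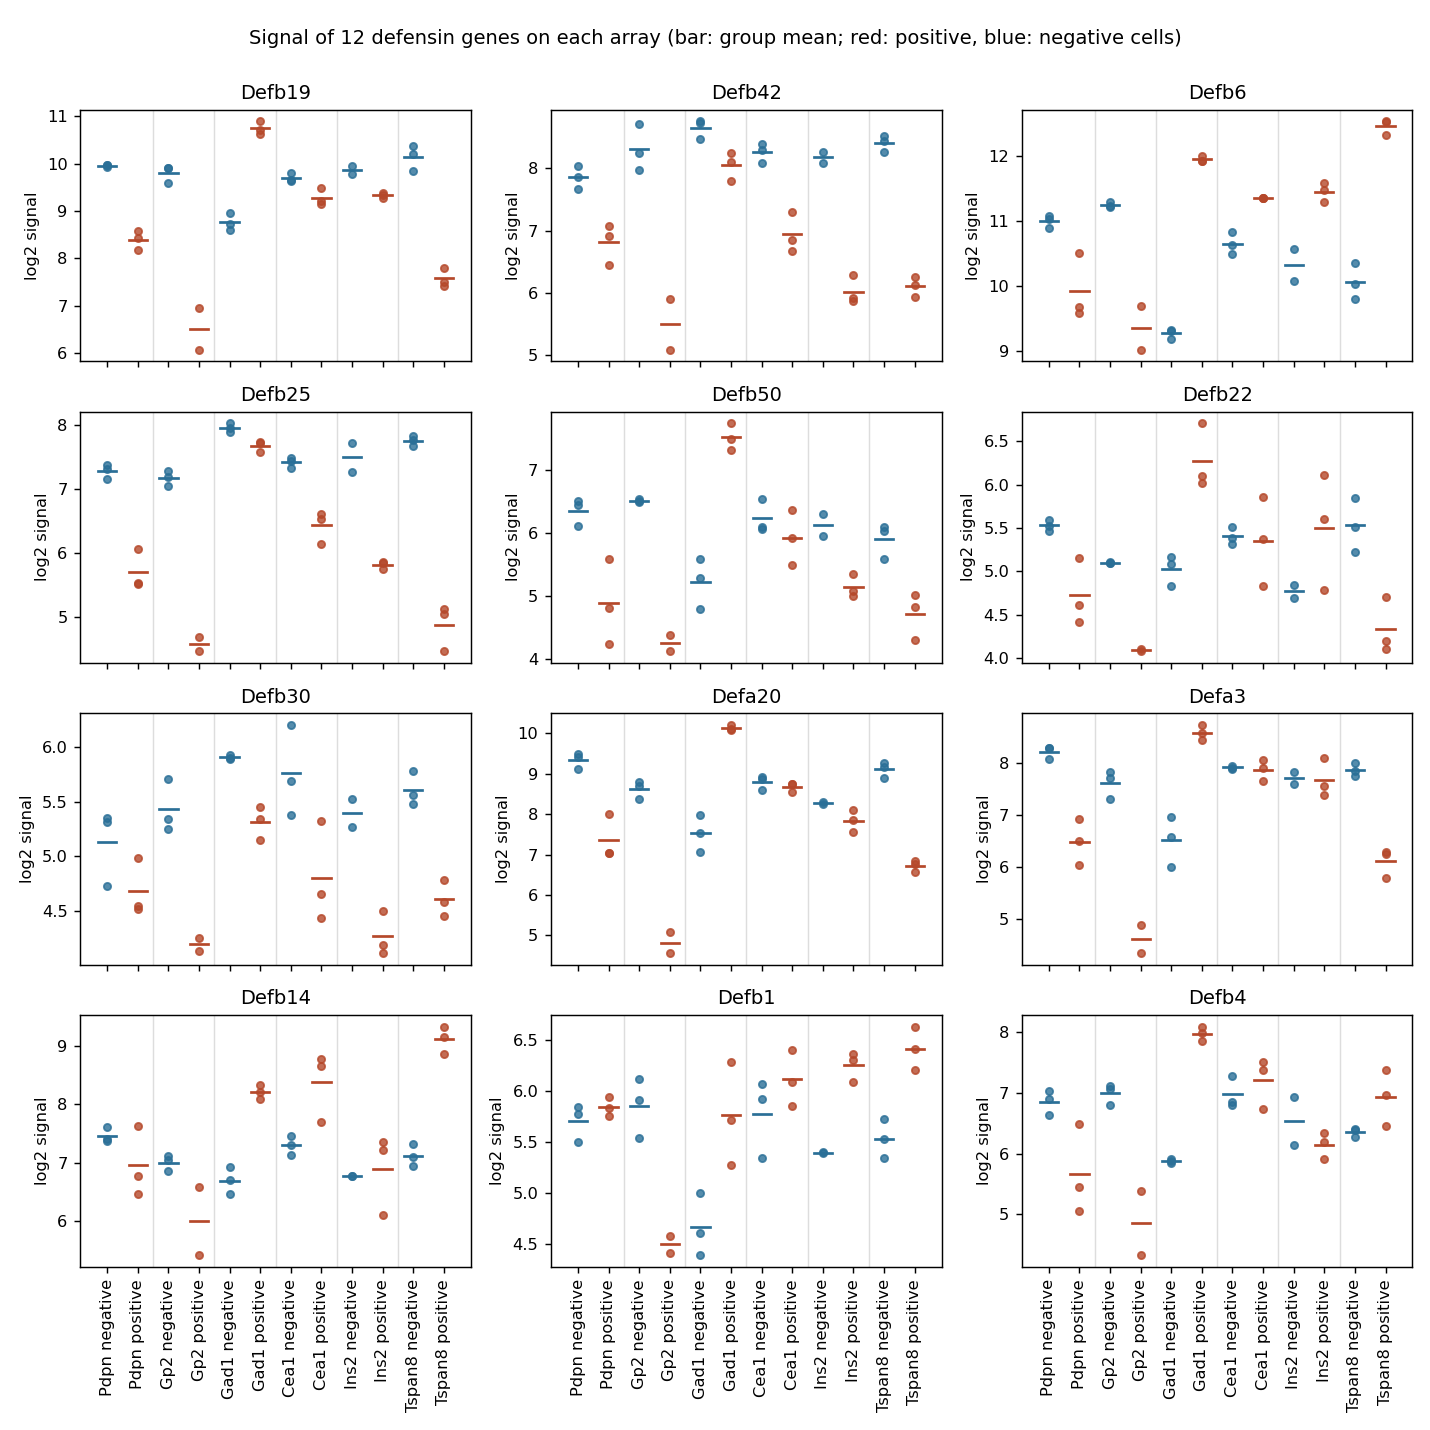
Normalized log2 signal (vertical axis, scaled for each gene) of 12 defensins on every array of the 12 groups (horizontal axis), positive cells in red and negative cells in blue, with bars at group means. Defa20, Defa3, Defb19 and Defb50 are highest in Gad1-positive cells, Defb6, Defb14 and Defb1 in Tspan8-positive cells, and Defb42, Defb25 and Defb30 in Gad1-negative cells.

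A second set of beta-defensins, Defb6, Defb14 and Defb1, rose in both the Gad1 and the Tspan8 sorts, and these were the 3 members that rose with Tspan8. Defb14 is the mouse counterpart of a beta-defensin of human skin, Defb6 is known from mouse oesophagus and tongue, and Defb1 is made constitutively by kidney and airway epithelium. Defb6 read 12.52, 12.53 and 12.31 in Tspan8-positive against 9.80, 10.04 and 10.35 in Tspan8-negative cells. That was a 5.26-fold rise without overlap (SE 0.17 on a log2 difference of 2.40; limma, adjusted p = 4.58e-14). In Gad1-positive cells it read 12.00, 11.93 and 11.91 against 9.31, 9.33 and 9.18, 6.37-fold higher (limma, adjusted p = 1.23e-14). It also rose with Cea1 (11.36, 11.35 and 11.35 against 10.49, 10.83 and 10.63, 1.63-fold) and with Ins2 (11.59, 11.48 and 11.29 against 10.56 and 10.08, 2.19-fold), again without overlap. The Ins2 rise was 0.51 and not called when arrays were scaled by their medians (adjusted p = 0.0767). Defb6 fell in the remaining sorts, 2.10-fold with Pdpn (10.51, 9.68 and 9.59 against 11.03, 11.07 and 10.89) and 3.70-fold with Gp2 (9.03 and 9.69 against 11.23, 11.30 and 11.22).

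Over the 12 groups Defb6 was highest in Tspan8-positive (12.46 ± 0.12, SD, n = 3) and Gad1-positive cells (11.95 ± 0.05), and these means lay further apart than their SDs. Ins2-positive (11.45 ± 0.15) and Cea1-positive cells (11.35 ± 0.00446) came next and did not differ beyond their spread. The lowest were Gp2-positive (9.36 ± 0.47, n = 2) and Gad1-negative cells (9.28 ± 0.08), which overlapped.

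Defb14 read 9.32, 9.15 and 8.85 in Tspan8-positive against 7.09, 6.94 and 7.32 in Tspan8-negative cells, 3.98-fold higher (limma, adjusted p = 3.99e-07). In the Gad1 sort it read 8.08, 8.33 and 8.20 against 6.45, 6.69 and 6.93, 2.85-fold higher, and in the Cea1 sort 8.65, 8.77 and 7.70 against 7.30, 7.45 and 7.14, 2.11-fold higher (limma, adjusted p = 0.00378). None of these groups overlapped. In the Gp2 sort it fell from 6.85, 7.10 and 7.05 to 5.42 and 6.59, a call that rested on Gp2-positive replicate 1, since without it the difference was -0.41 (adjusted p = 0.433). Its arrays overlapped in the Pdpn sort (-0.51, adjusted p = 0.177) and in the Ins2 sort (0.11, adjusted p = 0.848; limma).

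Defb1 read 6.63, 6.41 and 6.21 in Tspan8-positive against 5.53, 5.73 and 5.34 in Tspan8-negative cells, 1.85-fold higher (limma, adjusted p = 0.00177). It rose 2.14-fold with Gad1 (5.27, 5.72 and 6.29 against 4.61, 5.00 and 4.39) and 1.81-fold with Ins2 (6.37, 6.30 and 6.09 against 5.39 and 5.40). These groups did not overlap, but the Ins2 rise was lost with median scaling (0.34, adjusted p = 0.352) and without Ins2-negative replicate 1 (adjusted p = 0.0533). Defb1 was undetected in Gp2-positive cells (4.41 and 4.57 against 6.12, 5.54 and 5.91) and at least 2.57-fold lower there. With Cea1 and Pdpn it was not called, at 0.34 and 0.14.

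Defb4, an inducible beta-defensin of inflamed epithelium that lies between Defb14 and Defb6 in the annotated order, shared part of this pattern. It read 7.98, 8.10 and 7.85 in Gad1-positive against 5.85, 5.91 and 5.87 in Gad1-negative cells, 4.29-fold higher (limma, adjusted p = 1.97e-07). In the Tspan8 sort its arrays did not overlap (7.38, 6.97 and 6.45 against 6.41, 6.27 and 6.38), but the difference of 0.58 was not called (limma, adjusted p = 0.100). It fell 2.28-fold with Pdpn (6.50, 5.46 and 5.06 against 7.04, 6.63 and 6.90) and 4.42-fold with Gp2 (4.32 and 5.38 against 6.80, 7.11 and 7.07), where 1 of the 2 positive arrays detected it.

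Both patterns were found within 1 cluster. In annotated order on chromosome 8, Defb14, Defb4 and Defb6 had differences of 1.99, 0.58 and 2.40 in the Tspan8 sort, whereas the next tested genes, Defb46, Defb5 and Defb8, lay below 0 there. Defb46 was called lower (at least 2.04-fold), Defb8 fell by 1.31, and Defb5 was not called at -0.78. The second probe of Defb8 was not called there (-0.57). In the Gad1 sort all 6 were positive, and all but that of Defb5 (0.77) were called. Defb37, which comes before Defb14 in this order, rose by 1.46 with Gad1 and was at least 1.42-fold lower with Tspan8. The patterns were thus not parted by a single boundary. Of the 11 tested beta-defensins on this side of the alpha-defensins, 6 rose with Gad1 and 0 fell, while 2 rose and 4 fell with Tspan8. Of the 6 on the far side, 3 rose with Gad1, and with Tspan8 1 rose (Defb1) and 2 fell (Defb50 and Defb2). Over all genes 19.2% rose and 19.2% fell with Gad1, and 19.1% rose and 23.9% fell with Tspan8.

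Genes of the cornified epidermis moved with this second set in some sorts only. All 7 keratinocyte markers on a list (Lor, Flg, Ivl, Krt10, Krt1, Sprr1b and Sprr2d) rose in the Tspan8, Gad1 and Ins2 sorts, 6 of 7 rose in the Cea1 sort, and 5 of 7 fell with Gp2. Their summed linear signal was 70836 to 74879 on Tspan8-positive arrays, 18974 to 20504 on Gad1-positive, 27213 to 37867 on Ins2-positive and 16588 to 22165 on Cea1-positive arrays, against 2506 to 8284 on the negative arrays of those sorts. All 7 tuft cell markers (Trpm5, Pou2f3, Dclk1 and others) also rose in the Gad1 and Tspan8 sorts, 6 of 7 with Cea1 and 4 of 7 with Ins2. Their sums were 3305 to 3871 on Gad1-positive against 503 to 677 on Gad1-negative arrays, and 8991 to 10938 on Tspan8-positive against 1234 to 1644 on Tspan8-negative arrays. Of 9 neutrophil markers tested of 11, 7 rose in the Gad1 sort (sums of 18859 to 20625 against 6932 to 8008). In the Tspan8 sort 1 of them rose and 4 fell, with sums of 22095 to 28686 on positive and 11800 to 13511 on negative arrays, and in the Cea1 sort 7 rose, with sums of 28275 to 36062 against 12669 to 13849. The part of these transcripts in the rises of the defensins was not tested.

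Another set was lower in the positive cells of nearly every sort. Defb42, a beta-defensin known from the epididymis of rodents, fell in all 6. It read 8.47, 8.76 and 8.73 in Gad1-negative against 7.80, 8.25 and 8.11 in Gad1-positive cells, 1.52-fold lower (limma, adjusted p = 0.0177). Leaving out Gad1-negative replicate 2 or 3, or Gad1-positive replicate 1, ended this call, with adjusted p-values from 0.0563 to 0.104. In the Ins2 sort it read 5.86, 5.92 and 6.28 against 8.27 and 8.09, 4.48-fold lower, and in the Cea1 sort 7.31, 6.66 and 6.85 against 8.30, 8.09 and 8.39, 2.50-fold lower. The alpha-defensins were not called in those sorts. Tspan8-positive cells gave 6.13, 6.25 and 5.93 against 8.44, 8.27 and 8.52 (4.95-fold lower), Pdpn-positive cells 6.91, 7.08 and 6.45 against 8.04, 7.87 and 7.66 (2.06-fold lower) and Gp2-positive cells 5.08 and 5.90 against 8.25, 7.98 and 8.72 (7.09-fold lower). In none of the 6 sorts did positive and negative arrays overlap.

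Defb30, which neighbours Defb42 on chromosome 14 and starts on the opposite strand, fell in 5 sorts. It read 5.89, 5.93 and 5.90 in Gad1-negative against 5.45, 5.34 and 5.15 in Gad1-positive cells (limma, adjusted p = 0.0316), a call lost under 7 alternatives, among them median scaling (adjusted p = 0.178) and the authors' values (adjusted p = 0.103). In Ins2-positive cells it was undetected (4.12, 4.19 and 4.51 against 5.52 and 5.27) and at least 1.92-fold lower, and in Gp2-positive cells (4.14 and 4.26 against 5.25, 5.34 and 5.70) at least 1.99-fold lower. It fell by 0.95 with Cea1 (4.66, 4.44 and 5.32 against 6.20, 5.38 and 5.69) and by 1.00 with Tspan8 (4.46, 4.59 and 4.78 against 5.48, 5.56 and 5.78). With Pdpn the arrays overlapped and the difference was -0.44 (limma, adjusted p = 0.117). Of the named members it was the 1 whose differences were not unequal across sorts by the F test (adjusted p = 0.182).

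The 3 members that fell in the Gad1 sort were Defb42, Defb30 and Defb48 (-0.71), 3 of the 5 tested on chromosome 14. None of the 5 rose in that sort, where 19.2% of all genes fell and 19.2% rose. The remaining 2, Defb43 and Defb47, were not called in any sort.

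Defb25 is on chromosome 2, yet it moved like Defb42 and unlike Defb19. It read 5.13, 5.06 and 4.47 in Tspan8-positive against 7.83, 7.67 and 7.77 in Tspan8-negative cells, 7.31-fold lower (limma, adjusted p = 2.97e-15). It was undetected in Gp2-positive cells (4.48 and 4.69 against 7.04, 7.18 and 7.28) and at least 5.99-fold lower. The fall was 3.19-fold with Ins2 (5.85, 5.75 and 5.86 against 7.72 and 7.26), 2.98-fold with Pdpn (6.07, 5.51 and 5.53 against 7.37, 7.32 and 7.16) and 1.98-fold with Cea1 (6.62, 6.54 and 6.15 against 7.49, 7.43 and 7.33), without overlap. In the Gad1 sort, where Defb19 rose by 1.98, Defb25 was not called at -0.28 (7.72, 7.74 and 7.57 against 7.90, 8.03 and 7.95; 95% interval -0.65 to 0.09).

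The Gad1 and Tspan8 sorts were compared directly, as a difference of differences. For 20 of the 36 members the Gad1 difference and the Tspan8 difference were unequal (33.3% of all genes), and in each of the 20 the Gad1 difference was the larger, as it was for 17.9% of all genes. Of the 19 members that rose with Gad1, 15 fell with Tspan8, as did 28.9% of all genes that rose with Gad1, and the other 4 were Defb1, Defb4, Defb6 and Defb14. For Defa20 the gap was 4.99 (SE 0.29), for Defb19 4.54 (SE 0.23) and for Defa3 3.83 (SE 0.31). For Defb6 it was 0.27 (SE 0.24, limma adjusted p = 0.416), for Defb14 -0.48 (SE 0.40, adjusted p = 0.403) and for Defb1 0.21 (SE 0.33, adjusted p = 0.680), so these 3 were not shown to differ between the sorts. Defb4 differed, by 1.52 (SE 0.40, adjusted p = 0.00302).

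**Figure D5:**
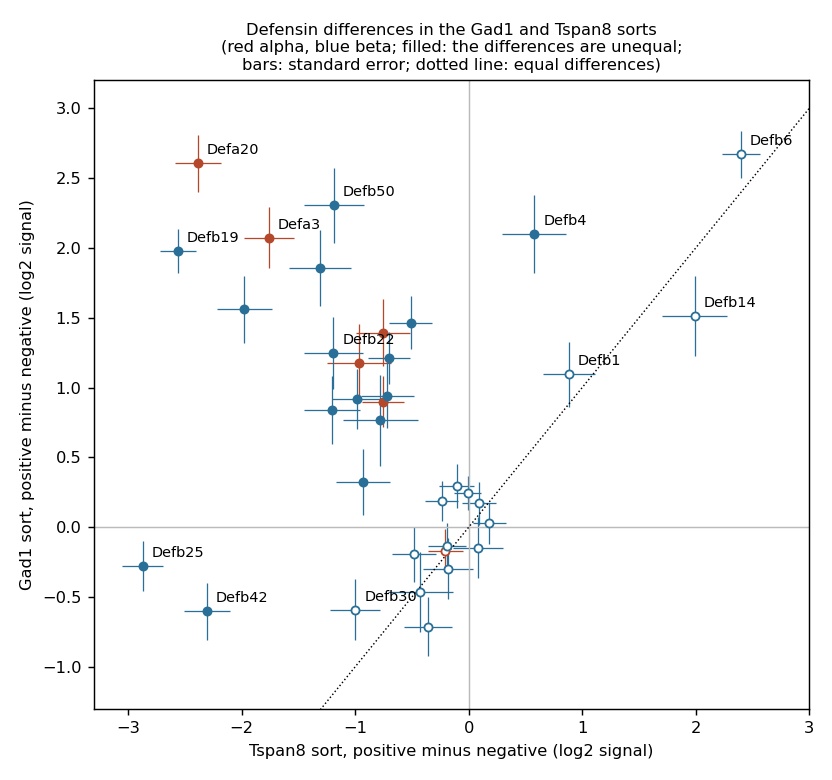
Difference of each of the 36 defensins in the Gad1 sort (vertical axis) against that in the Tspan8 sort (horizontal axis), both positive minus negative in log2 signal, with standard errors. Alpha-defensins are red and beta-defensins blue, and filled points are the 20 members whose differences were unequal; most filled points lie in the upper left, and Defb6, Defb14 and Defb1 in the upper right near the line of equal differences.

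In the Gp2 sort, where most members fell, Defb33 was the 1 that rose. Its difference was 0.64 (limma, adjusted p = 0.0185), but the arrays overlapped (4.30 and 5.76 against 4.43, 4.30 and 4.47) and only 1 of the 2 positive arrays detected it. The call rested on Gp2-positive replicate 2, without which the difference was -0.10 (adjusted p = 0.754). It was also lost without Gp2-negative replicate 2 (adjusted p = 0.0570) and with the Gp2 sort fitted alone (adjusted p = 0.213). Gp2-positive cells also differed in transcripts of other cells. All 9 thymocyte markers tested of 11 rose, with a median difference of 3.28, and their summed linear signal was 13257 to 17446 on the 2 Gp2-positive arrays and 964 to 3349 on all other arrays. Of the 10 mTEC markers 6 fell in that sort, and the median difference of the list was -0.66. All 6 microfold cell markers, Gp2 among them, rose. In the Pdpn sort 6 of 8 fibroblast and pericyte markers rose, with sums of 7582 to 11623 on positive and 1790 to 2013 on negative arrays. The part of these transcripts in the falls of the defensins was not tested.

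Aire, the transcription factor that drives many tissue-restricted genes in mTECs, was not called in the Gad1 sort (-0.10; limma, adjusted p = 0.641) and fell by 2.76 with Tspan8, 2.26 with Gp2, 1.32 with Pdpn, 0.96 with Cea1 and 0.47 with Ins2. Fezf2 was likewise not called with Gad1 (0.17) or Ins2 (-0.19) and fell by 1.93 with Gp2, 0.90 with Pdpn, 0.57 with Tspan8 and 0.40 with Cea1. Chd4, listed with them as a regulator of such genes, rose by 0.77 with Pdpn and by 0.65 with Gp2 and fell by 0.47 with Gad1. With Tspan8 (0.29), Ins2 (0.30) and Cea1 (-0.13) it was not called. The part of these regulators in the differences of the defensins was not tested.

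Many of the tested beta-defensins are known from the epididymis and male tract, and 20 genes on a list of 30 from these tissues were tested. In the Gad1 sort 9 rose (19.2% of all genes) and 0 fell (19.2%). With Tspan8 1 rose (19.1% of all genes) and 3 fell (23.9%). With Pdpn 1 rose (18.2%) and 6 fell (19.1%), and with Gp2 1 rose (18%) and 5 fell (21%). The counts were 2 and 2 with Cea1 (13.4% and 15.6% of all genes) and 0 and 2 with Ins2 (16.8% and 17.7%). Spag11b, a defensin-like sperm-binding peptide gene that lies within the beta-defensin cluster of chromosome 8, rose in the Gad1 sort, from a mean of 4.32, detected on no Gad1-negative array, to 6.06 (limma, adjusted p = 1.89e-08). It also rose by 1.18 with Cea1 and fell by 0.85 with Pdpn. Other antimicrobial protein genes gave a different picture in the Cea1 and Ins2 sorts, where few defensins were called. Of 22 tested, 15 rose and 3 fell with Cea1, 13 rose and 4 fell with Ins2, and 19 rose and 0 fell with Gad1. With Tspan8 10 rose and 7 fell, with Gp2 5 rose and 15 fell, and with Pdpn 5 rose and 11 fell. The shares of all genes in each sort are those given above. Camp, the cathelicidin, rose by 1.72 with Gad1 and by 1.58 with Cea1, and fell by 1.81 with Gp2, 1.89 with Pdpn and 1.21 with Tspan8.

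Ccr6, a chemokine receptor that some beta-defensins bind, fell in the Tspan8 sort (-1.95), the Pdpn sort (-1.44), the Gp2 sort (-1.33), the Gad1 sort (-0.54) and the Cea1 sort (-0.48). Its chemokine ligand Ccl20 rose with Gp2 (3.33), Cea1 (1.84), Ins2 (1.57), Gad1 (1.48) and Tspan8 (1.27).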

How the data were processed

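The labels name 35 arrays, hybridised with labelled RNA made from 200 ng of total RNA. The deposited table holds, per the file headers, mean bead intensities of 46089 probes with a detection p-value beside each, neither background-subtracted nor normalized. The authors' normalized intensities, by an unstated method, were an alternative. The intensity column of Ins2-negative replicate 2 held p-values of another array, so 34 arrays were fitted. Both tables were linked probe by probe through their values, and all probes were linked. Symbols came from the platform annotation, updated with RefSeq (GRCm38.p6).

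Normalization used neqc of limma 3.58.1 (R 4.3.3), which corrects background, adds an offset of 16, equalizes quantiles and takes log2. A probe was kept if its detection p was under 0.05 on at least 2 arrays of any 1 group, and the brightest such probe stood for its gene. Group means were fitted with lmFit and eBayes with an intensity trend (22 residual degrees of freedom), and p-values adjusted over all genes of a contrast. A probe undetected on every array of a group gives a bound ("at least"): the bright mean against, per dim array, the higher of its lowest detected signal and the probe's own. The scripts were tested on simulated data.

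The labels do not say that a replicate number marks a shared animal, day or batch. Same-numbered deviations from the group means correlated at 0.156 to 0.205 in the Pdpn sort. The range was 0.106 to 0.229 with Gp2, 0.0809 to 0.212 with Cea1 and 0.0513 to 0.104 with Ins2. With Tspan8 it was 0.0677 to 0.0847, and with Gad1 -0.00149 to 0.0718. Such values cannot settle whether samples were paired. The main fit used no pairing, and a replicate block was an alternative. Array-by-array values are given for the 10 members called in most sorts, ties going to the larger difference, and for Defb1 and Defb4. Defb3, which the same rule named, has no probe of that symbol here. Members and lists were chosen with earlier results of these data known.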

Additional observations from a re-analysis of the deposited data

Results flagged for a closer look

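These differences between sorts were tested directly. The 6 differences of a gene were unequal by limma's F test, adjusted over all genes, for 11 of the 12 members with array-by-array values. The adjusted p-values were 3.7e-18 for Defb19, 2.4e-17 for Defa20, 2.4e-17 for Defb6 and 2.4e-14 for Defa3. They were 5.3e-11 for Defb50, 5.4e-10 for Defb25, 1.8e-09 for Defb4 and 2.6e-07 for Defb42. For Defb14 the value was 2.8e-07, for Defb22 1.1e-06 and for Defb1 2.1e-06. Apart from Defb1 and Defb4, these members were picked for being called in many sorts, so the test reuses the values that chose them. Over all tested members 24 of 36 passed, beside 61.5% of all genes, so it does not set the defensins apart.

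The Gad1 difference exceeded the Tspan8 difference for 8 of these members, with limma adjusted p-values of 3.5e-16 (Defb19), 9.5e-15 (Defa20), 7e-12 (Defa3), 5.6e-10 (Defb25), 4.1e-09 (Defb50), 2.4e-06 (Defb22), 1.5e-05 (Defb42) and 0.003 (Defb4). Of these, Defb42 fell in both sorts, less with Gad1, Defb25 was not called with Gad1, and the other 6 rose with Gad1. Over all 36 members the Gad1 difference was the larger for 20, and over all genes for 17.9%. The members listed were mostly picked for being called in many sorts, and other pairs of sorts are not given.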

How the results depend on the processing

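The alternatives were no background correction, median scaling, the authors' normalized values, no or a stricter detection filter, every probe on its own, array weights, each sort fitted alone, a replicate block and each array left out. The number of defensins called stayed within 1.5 times in 87 combinations of sort and alternative and left that range in 1. That was the Ins2 sort without Ins2-negative replicate 1, where 5 remained of 8 and the lone negative array was assumed to vary like other groups. Leaving out arrays gave 13 to 18 calls with Pdpn, 18 to 22 with Gp2, 20 to 22 with Gad1, 5 to 6 with Cea1, 5 to 8 with Ins2 and 20 to 22 with Tspan8. With the replicate block 18 fell in the Pdpn sort, against 16 without it, and 0 rose. It gave 20 calls with Gp2, 22 with Gad1, 6 with Cea1, 8 with Ins2 and 24 with Tspan8, and of the calls of the 12 members with array-by-array values it ended that of Defb22 in the Ins2 sort alone. Of 57 called differences of these members, 47 kept their call under every alternative and 10 lost it under at least 1, and no sign turned. Of the class medians 12 moved by more than the members' median standard error and 24 did not; those under the authors' values were nearer 0, with alpha medians of 0.44 with Gad1 and -0.35 with Gp2 and beta medians of 0.17 and -0.21, and those of beta-defensins also without the detection filter. Another kept probe existed for 6 members. With every probe on its own, 25 called differences could be set against such a probe. It had the same sign in 24 of them and was called the same way in 16. A slide block was not run, since the headers name no slide. Members near background, such as Defa31, have no measurable order of groups.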
